A study of Mus musculus with 27 samples.

Results

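Carboxylesterases are a family of serine hydrolases encoded in the mouse by the Ces genes, and 10 of them are described here across 9 inbred strains: Ces1c, Ces1d, Ces1e, Ces1f, Ces1g, Ces2a, Ces2c, Ces2e, Ces2h and Ces3a. They were chosen by name: each is the gene of the deposited table whose Ensembl identifier carries that symbol in GENCODE M21. All 10 were found, among 43346 genes in the table, of which 20 carry a Ces symbol. RNA was sequenced from hepatocytes of female mice at 12 weeks of age, with 3 libraries for each of the strains 129S1/SvImJ, A/J, C57BL/6J, CAST/EiJ, DBA/2J, NOD/ShiLtJ, NZO/HlLtJ, PWK/PhJ and WSB/EiJ, 27 libraries in all. The labels name no treatment, and no genetic difference between groups other than the strain. CAST/EiJ, PWK/PhJ and WSB/EiJ are inbred from wild-caught mice, and the other strains are classical laboratory strains. The labels call the libraries biological replicates and number them, but whether each came from a separate mouse is not stated, so p-values measure the spread between these libraries.

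Carboxylesterases cut ester bonds. In the liver most of them sit in the lumen of the endoplasmic reticulum, held there by a retention signal at the end of the protein, and act on ester drugs, on pyrethroid insecticides and on the body's own triacylglycerols and cholesteryl esters. The Ces1 enzymes are known for mobilising stored triacylglycerol for very low density lipoprotein, and the Ces2 enzymes for hydrolysing drugs and acylglycerols in intestine and liver. The genes lie in tandem arrays made by duplication, so neighbours resemble each other in sequence. On the GRCm38 map of GENCODE M21 all 10 lie on chromosome 8. The 5 Ces1 members are on the minus strand between chr8:93099015 (the end of Ces1c) and chr8:93337308 (the start of Ces1g). Ces2a, Ces2c, Ces2e, Ces2h and Ces3a follow on the plus strand, from chr8:104734003 to chr8:105058413.

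The sequences before 4 of the genes are shown so that close relatives with like and unlike strain orders can be compared. Ces2a and Ces2e were both lowest in the same strain, and Ces2h was near 0 in 6 strains. Ces2c is a close relative with another lowest strain as deposited, a place that is uncertain, as described further on. The RefSeq promoter windows of these 4 genes are 300 bases long, from 250 before to 50 after the annotated start. They are given 5′ to 3′ on the plus strand of GRCm38.p6, the reference built from C57BL/6J. Ces2a is at chr8:104733753-104734052, Ces2e at chr8:104926010-104926309, Ces2c at chr8:104846818-104847117 and Ces2h at chr8:105000580-105000879. In Ces2a and Ces2e the capitals mark the longest run that both windows share, in Ces2c the longest run it shares with Ces2a, and in Ces2h the hexamers AGGTCA and AGTTCA, half-sites that nuclear receptors can bind.
Ces2a: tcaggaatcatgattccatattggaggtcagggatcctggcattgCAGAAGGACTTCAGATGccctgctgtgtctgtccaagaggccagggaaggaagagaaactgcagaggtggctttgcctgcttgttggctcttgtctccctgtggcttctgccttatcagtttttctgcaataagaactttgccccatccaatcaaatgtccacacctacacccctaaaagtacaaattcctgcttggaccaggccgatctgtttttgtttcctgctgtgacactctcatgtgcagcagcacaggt
Ces2e: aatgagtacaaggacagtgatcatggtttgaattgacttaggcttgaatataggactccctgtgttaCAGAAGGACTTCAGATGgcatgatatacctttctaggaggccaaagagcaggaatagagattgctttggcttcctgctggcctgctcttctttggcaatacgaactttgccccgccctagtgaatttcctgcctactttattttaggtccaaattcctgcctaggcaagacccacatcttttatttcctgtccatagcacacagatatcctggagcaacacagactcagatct
Ces2c: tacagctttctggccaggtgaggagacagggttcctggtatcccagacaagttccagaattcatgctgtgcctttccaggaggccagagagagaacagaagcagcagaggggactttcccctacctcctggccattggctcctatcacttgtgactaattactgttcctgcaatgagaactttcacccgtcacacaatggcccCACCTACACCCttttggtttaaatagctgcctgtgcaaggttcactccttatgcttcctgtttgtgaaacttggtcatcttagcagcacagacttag
Ces2h: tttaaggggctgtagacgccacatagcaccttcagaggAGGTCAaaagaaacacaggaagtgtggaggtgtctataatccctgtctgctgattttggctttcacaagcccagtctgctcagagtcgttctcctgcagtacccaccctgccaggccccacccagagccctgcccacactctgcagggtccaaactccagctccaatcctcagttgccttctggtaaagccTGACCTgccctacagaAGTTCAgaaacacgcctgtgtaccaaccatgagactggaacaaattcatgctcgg

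The libraries held 17015932 to 35078483 estimated counts, and the 10 members together took 0.658% to 1.25% of them. Levels are given as CPM, counts scaled to the size of the library, with TMM factors, a correction for libraries in which a few very abundant genes take up much of the sequencing. The hepatocyte label was checked with 10 hepatocyte genes, all of which were detected in every library; their summed level was 135095 CPM in CAST/EiJ, the lowest strain, and 332225 CPM in A/J, the highest. Summed levels of 10 Kupffer cell genes ran from 35.04 to 442 CPM over the libraries, of 10 liver endothelial genes from 53.5 to 659 CPM and of 10 stellate cell genes from 31.2 to 190 CPM. Cholangiocyte, lymphocyte and erythroid lists summed to at most 9.67, 12.3 and 36.6 CPM, with 5 of 7, 7 of 8 and 5 of 6 of their genes at 0 in some library. In such bulk samples fewer cells of a type and less RNA per cell cannot be told apart. Libraries of 3 strains stood apart from the others of their strain in several members: WSB/EiJ replicate 4, DBA/2J replicate 4 and PWK/PhJ replicate 1. In DBA/2J replicate 4 the Kupffer sum was 35.04 CPM, against 131 and 195 CPM in the other DBA/2J libraries. In PWK/PhJ replicate 1 the Kupffer sum was 442 CPM and the endothelial sum 659 CPM, against 150 and 151 CPM and 199 and 241 CPM in the other PWK/PhJ libraries.

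All 10 members differed among the 9 strains (edgeR's quasi-likelihood test of the strain effect over 14482 genes tested, Benjamini-Hochberg adjusted p under 0.05). So did 10746 of the 14482 genes, 74.2%, so the count of members alone says little about this family. Compared strain by strain, the members gave 165 called differences out of 360 (10 members by 36 strain pairs), where 23.4% of all gene-by-pair tests were called. The number of pairs called ranged from 9 for Ces1e to 25 for Ces1g, with a median of 14.5, beside a median of 8 and quartiles of 3 and 13 over all genes tested. The span between the highest and the lowest strain mean had a median of 2.89 on the log2 scale over the members and 1.16 over all genes tested. Members were chosen with earlier results of these data known, and other Ces genes were left out. These values therefore describe the 10 members and not the whole family.

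**Figure D1:**
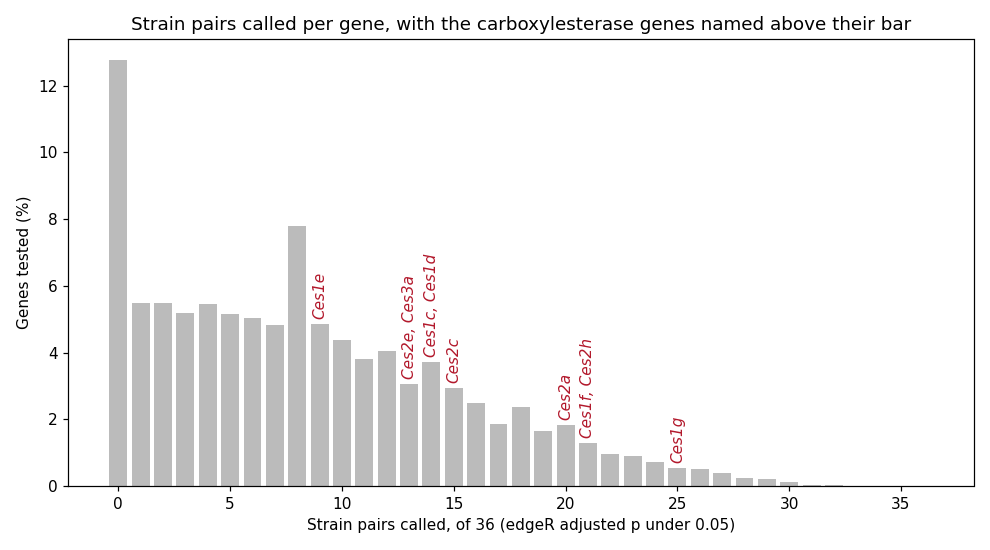
Histogram of the number of strain pairs called for each of the 14482 genes tested (x axis, 0 to 36 pairs; y axis, percent of genes), with the 10 members named at their own count. Ces1e sits at 9 pairs, above the median gene at 8, and Ces1g at 25.

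The strains did not share the extremes evenly. CAST/EiJ had the lowest mean of 5 members, Ces1c, Ces1d, Ces1e, Ces1f and Ces2c, and PWK/PhJ had the lowest of 3, Ces1g, Ces2a and Ces2e. The place of Ces2c is uncertain, because CAST/EiJ was the highest strain once Ces2c was summed with Ces2d-ps and Ces2b, similar genes described further on. Of the 80 member-by-pair tests that involve CAST/EiJ, 50 were called lower and 11 higher in CAST/EiJ; over all genes, 16.1% of such tests were called lower and 14.4% higher there. With the copies of Ces2c, Ces3a and Ces1c summed, 42 were lower and 18 higher. For PWK/PhJ 35 of 80 were called lower, beside 14.3% over all genes, and 19 were called higher, beside 14.4%. C57BL/6J was the highest strain for 4 members, Ces1c, Ces1g, Ces2c and Ces2e. For Ces1c NOD/ShiLtJ was highest when library totals were the only scaling. In C57BL/6J 30 of 80 tests were called higher, beside 11% over all genes, and 27 with the copies summed. Whether reads were mapped to strain genomes or to the C57BL/6J reference is not stated, and its part was not tested. Among all genes tested CAST/EiJ was the lowest strain for 16.9% and the highest for 18.3%, both the largest shares of the 9 strains; PWK/PhJ followed with 14.3% and 15.1%. The hepatocyte sum was also lowest in CAST/EiJ, at 135095 CPM, next to 141689 CPM in NZO/HlLtJ and 193913 CPM in PWK/PhJ, and its part in these differences was not tested.

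**Figure D2:**
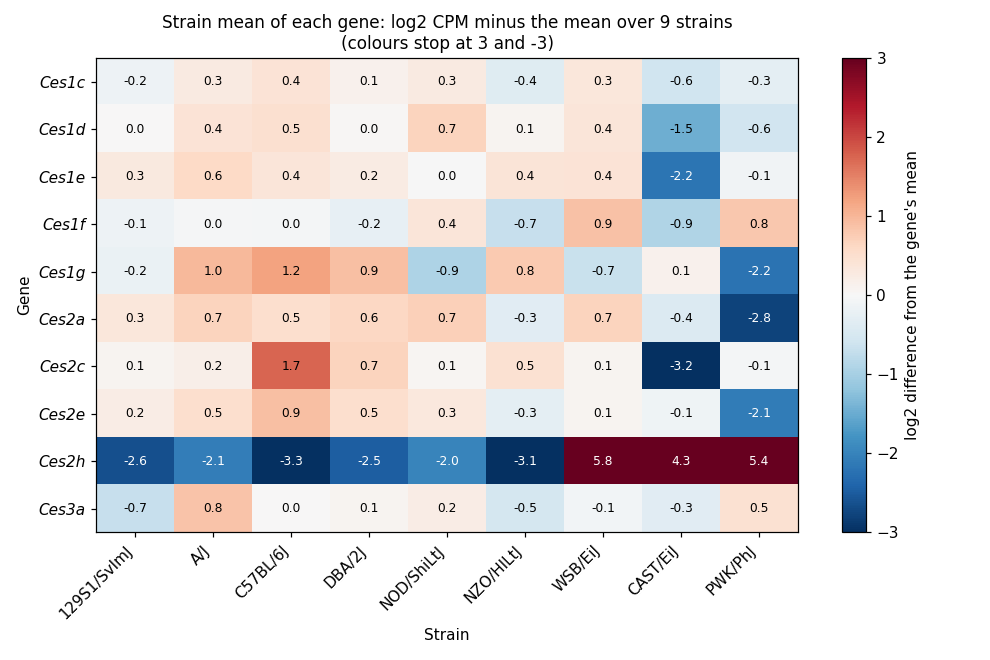
Heat map of the 10 members (rows) by 9 strains (columns), each cell the log2 strain mean CPM minus the mean of that member over the 9 strains, with colours that stop at 3 in either direction. The CAST/EiJ and PWK/PhJ columns hold the lowest cell of 8 members, and Ces2h is high in WSB/EiJ, PWK/PhJ and CAST/EiJ only. Among the 8 is Ces2c in CAST/EiJ, whose low place reverses when Ces2b and Ces2d-ps are added, mostly through Ces2b.

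Ces1c (ENSMUSG00000057400, chr8:93099015-93131283, minus strand) encodes the carboxylesterase that the mouse liver secretes into plasma, where it hydrolyses ester drugs. It averaged 5161 CPM over the 27 libraries and was the most abundant member per kilobase of transcript, at 2823 CPM per kilobase. Means fell from 6689 ± 1177 CPM in C57BL/6J (SD, n = 3 here and for every strain mean) through 6309 ± 1685 in WSB/EiJ, 6098 ± 1045 in A/J, 6076 ± 584 in NOD/ShiLtJ and 5527 ± 1252 in DBA/2J to 4489.9 ± 415 in 129S1/SvImJ. PWK/PhJ at 4069.7 ± 601 CPM, NZO/HlLtJ at 3881 ± 248 and CAST/EiJ at 3311 ± 171 followed. The 3 CAST/EiJ libraries read 3125, 3346 and 3462 CPM and the 3 C57BL/6J libraries 5330.0, 7358 and 7380.2 CPM, so these groups did not overlap. C57BL/6J was 2.02-fold above CAST/EiJ (adjusted p = 0.000981). The strain effect had an adjusted p of 0.000923, and none of the 8 steps between neighbours in the order was called. Of the 36 pairs 14 were called, and 8 to 16 when single libraries were left out: the count dropped to 8 or 9 without any 1 of the 3 NZO/HlLtJ libraries, PWK/PhJ replicate 3 or WSB/EiJ replicate 2.

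Ces1d (ENSMUSG00000056973, chr8:93166068-93197838, minus strand) encodes the triacylglycerol hydrolase of the endoplasmic reticulum, known for releasing fatty acids for lipoprotein assembly. It was highest in NOD/ShiLtJ at 1336 ± 214 CPM, then 1178 ± 59.4 in C57BL/6J, 1120.5 ± 97.5 in A/J, 1075 ± 179 in WSB/EiJ, 883 ± 74.4 in NZO/HlLtJ, 865 ± 296 in DBA/2J and 841 ± 79.8 in 129S1/SvImJ. Lower still were PWK/PhJ, with libraries at 744, 581 and 353 CPM, and CAST/EiJ, with 285, 343 and 278 CPM. CAST/EiJ lay below every library of the other 8 strains. NOD/ShiLtJ was 4.43-fold above CAST/EiJ (95% interval 3.13 to 6.27, adjusted p = 3.46e-07). PWK/PhJ, the nearest strain, was 1.85-fold above it (1.32 to 2.59, adjusted p = 0.00717). That step was not called with Kupffer and endothelial levels as covariates (1.25-fold, adjusted p = 0.39) or with the replicate number as a block (1.63-fold, adjusted p = 0.12). Among the upper 8 strains no neighbour step was called.

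Ces1e (ENSMUSG00000061959, chr8:93201218-93229619, minus strand), also called egasyn, is the esterase that binds beta-glucuronidase and keeps part of it in the endoplasmic reticulum. A single strain, CAST/EiJ, stood far below the other 8. CAST/EiJ libraries read 32.6, 43.0 and 38.9 CPM, a mean of 38.2 ± 5.23, while the lowest library of any other strain read 115 CPM. From A/J at 262 ± 63.5 CPM the order ran through WSB/EiJ at 232 ± 29.5, NZO/HlLtJ at 228 ± 22.2, C57BL/6J at 222 ± 44.5, 129S1/SvImJ at 213 ± 26.95, DBA/2J at 205 ± 52.7 and NOD/ShiLtJ at 172 ± 15.5 to PWK/PhJ at 161 ± 56.1. All 8 pairs with CAST/EiJ were called, from 4.22-fold against PWK/PhJ (3.01 to 5.91, adjusted p = 3.8e-07) to 6.88-fold against A/J (4.86 to 9.73, adjusted p = 4.41e-09). A single pair without CAST/EiJ was called, A/J over PWK/PhJ (adjusted p = 0.026), and its libraries overlapped: 279, 192 and 316 CPM against 223, 145 and 115. It was not called with the replicate block (adjusted p = 0.056) or library totals (adjusted p = 0.061). Without PWK/PhJ replicate 1, the library with the high Kupffer and endothelial sums, 15 pairs were called in place of 9, and with Kupffer and endothelial covariates 20.

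Beta-glucuronidase itself, encoded by Gusb, followed another order. WSB/EiJ libraries read 70.4, 107.6 and 105.7 CPM, a mean of 94.6 ± 20.9, and the other 8 strains averaged 25.4 to 36.2 CPM. Gusb in CAST/EiJ, the strain low in Ces1e, was 30.1 CPM, within that range.

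Ces1f and Ces1g are neighbours on the chromosome, and both act on triacylglycerol in liver. Ces1f (ENSMUSG00000031725, chr8:93256236-93279747, minus strand) encodes a lipase of the endoplasmic reticulum also named triacylglycerol hydrolase 2, and loss of Ces1g in mice is known to raise liver and plasma lipid. Ces1f was highest in WSB/EiJ, with libraries at 838, 974 and 1056 CPM, and in PWK/PhJ, with 1222, 795 and 699.7 CPM. NOD/ShiLtJ followed at 674 ± 21.4 CPM, A/J at 509 ± 70.5, C57BL/6J at 504 ± 63.6, 129S1/SvImJ at 470.1 ± 48.8, DBA/2J at 441 ± 126, NZO/HlLtJ at 325 ± 22.1 and CAST/EiJ at 281 ± 28.1. No neighbour step of this gradual order was called, yet 21 of the 36 pairs were, with WSB/EiJ 3.41-fold above CAST/EiJ (2.55 to 4.56, adjusted p = 4.68e-07).

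Ces1g (ENSMUSG00000057074, chr8:93302369-93337308, minus strand) had the most calls of the 10 members, with 25 pairs called and 30 of 36 not overlapping (38.1% of all gene-by-pair sets did not overlap). C57BL/6J libraries read 517, 737 and 802 CPM and PWK/PhJ libraries 93.0, 55.2 and 42.1 CPM. Between them stood A/J at 578 ± 65.5 CPM, DBA/2J at 547 ± 174, NZO/HlLtJ at 508 ± 27.1, CAST/EiJ at 325 ± 24.0, 129S1/SvImJ at 256 ± 9.44, WSB/EiJ at 185 ± 60.2 and NOD/ShiLtJ at 156 ± 39.3. PWK/PhJ was lower than each other strain without overlap, from 2.46-fold below NOD/ShiLtJ (1.66 to 3.65, adjusted p = 0.00113) to 10.8-fold below C57BL/6J (7.07 to 16.5, adjusted p = 3.85e-09). The 3 strains highest in Ces1f were the 3 lowest in Ces1g: the ratio of Ces1f to Ces1g CPM, which compares strains and not the levels of the genes, was 14.7 ± 1.76 in PWK/PhJ, 5.79 ± 2.89 in WSB/EiJ, 4.54 ± 1.29 in NOD/ShiLtJ and 1.84 ± 0.242 in 129S1/SvImJ, and between 0.640 and 0.879 in the other 5 strains. PWK/PhJ replicate 1 was the highest PWK/PhJ library for both genes, and its Kupffer and endothelial sums, given above, were high too; the ratio of the 3 PWK/PhJ libraries ran only from 13.1 to 16.6.

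**Figure D3:**
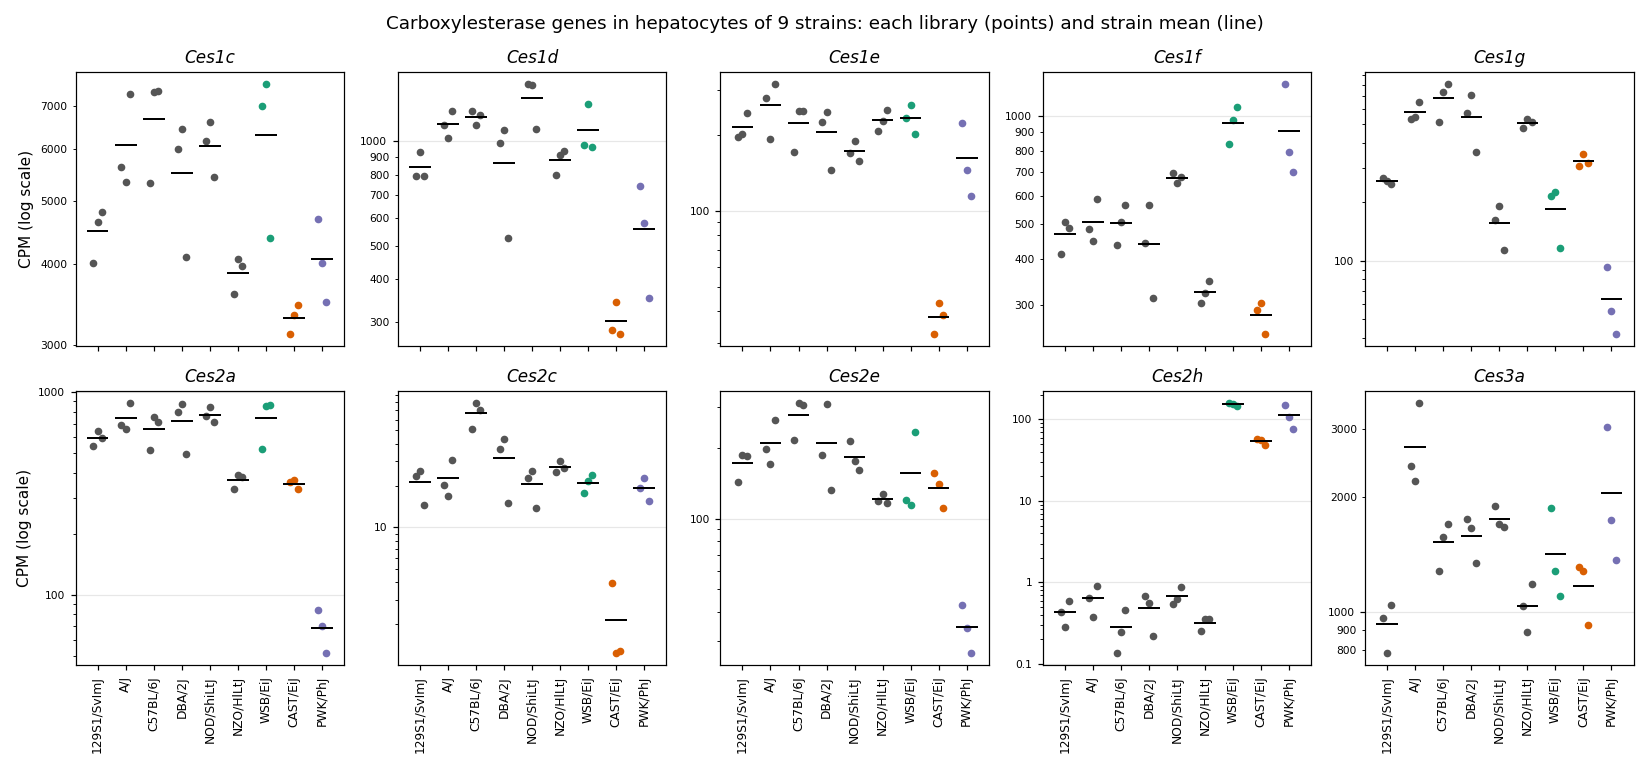
The 10 members, a panel each, with TMM-scaled CPM on a log axis against strain; points are the 27 libraries and lines the strain means. CAST/EiJ points lie lowest for Ces1c, Ces1d, Ces1e, Ces1f and Ces2c, and the level of Ces2c there is uncertain. PWK/PhJ points lie lowest for Ces1g, Ces2a and Ces2e, and Ces2h splits into 3 high and 6 low strains.

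Ces2a (ENSMUSG00000055730, chr8:104734003-104741634, plus strand), a hydrolase of drugs and of mono- and diacylglycerols, was highest in a group of 6 strains and lower in 3. NOD/ShiLtJ at 772 ± 70.5 CPM, WSB/EiJ at 749.6 ± 193, A/J at 744 ± 119, DBA/2J at 723 ± 199.9, C57BL/6J at 660.3 ± 125 and 129S1/SvImJ at 593 ± 51.5 had no called difference between neighbours. The first step down was from 129S1/SvImJ to NZO/HlLtJ, at 368 ± 32.2 CPM (1.61-fold, 1.18 to 2.19, adjusted p = 0.0224), next to which stood CAST/EiJ at 353 ± 17.9. The second was to PWK/PhJ, with libraries at 83.8, 70.2 and 51.7 CPM, 5.15-fold below CAST/EiJ (3.72 to 7.12, adjusted p = 2.25e-08) and 11.3-fold below NOD/ShiLtJ (8.02 to 15.8, adjusted p = 4.92e-11). No PWK/PhJ library came near the lowest CAST/EiJ library, at 333 CPM.

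Ces2e (ENSMUSG00000031886, chr8:104926260-104934672, plus strand), known as a pyrethroid hydrolase of liver and intestine, had the same lowest strain. PWK/PhJ libraries read 42.6, 34.0 and 26.6 CPM, and the next strain, NZO/HlLtJ, read 119.7, 127 and 116 CPM, a step of 3.52-fold (2.35 to 5.28, adjusted p = 3.69e-05). Above them stood CAST/EiJ at 136 ± 23.1 CPM, WSB/EiJ at 157 ± 68.2, 129S1/SvImJ at 173 ± 24.7, NOD/ShiLtJ at 184 ± 27.9, DBA/2J at 210.2 ± 90.9, A/J at 212 ± 48.4 and C57BL/6J at 278 ± 53.1. No other neighbour step was called. C57BL/6J exceeded PWK/PhJ 8.09-fold (5.30 to 12.4, adjusted p = 3.46e-08). WSB/EiJ replicate 4, at 236 CPM, was above the other WSB/EiJ libraries at 121 and 115 CPM, although it was the lowest WSB/EiJ library for Ces1c and Ces1g. Leaving out the 3 libraries that stood apart raised the Ces2e calls from 13 to 21 pairs, while Kupffer and endothelial covariates lowered them to 8.

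Ces2a and Ces2e had the highest Pearson correlation of log2 strain means among the members, 0.95 over 9 strains, and it rested on PWK/PhJ: over the other 8 strains it was 0.67, below Ces1c with Ces2a at 0.92. By Spearman's rank correlation Ces2a and Ces2e had 0.68, below Ces1c with Ces1d at 0.80. The points share their libraries and scaling, so these values are a description. The ratio of Ces2a to Ces2e CPM, used here to compare strains and not the levels of the genes, was 1.99 ± 0.0655 in PWK/PhJ, the lowest, and 5.17 ± 2.04 in WSB/EiJ, the highest. The run in capitals in their promoter windows, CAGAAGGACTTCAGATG, is 17 bases long and starts at position -205 of Ces2a and -183 of Ces2e, counted from the annotated start. It was found in 2 of 32851 RefSeq mouse promoter windows on the strand of the gene, 0.00609%, and those are Ces2a and Ces2e. It was searched for after the windows had been aligned. Aligned over their length, the windows of Ces2a and Ces2e were 69.4% identical. Those of Ces2a and Ces2c were 69.1% identical and those of Ces2c and Ces2e 67.4%. The strain order of Ces2c depends on its CAST/EiJ value, reported below as uncertain. A link between these windows and strain order was not tested. Whether the other strains carry the same letters was not examined.

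**Figure D4:**
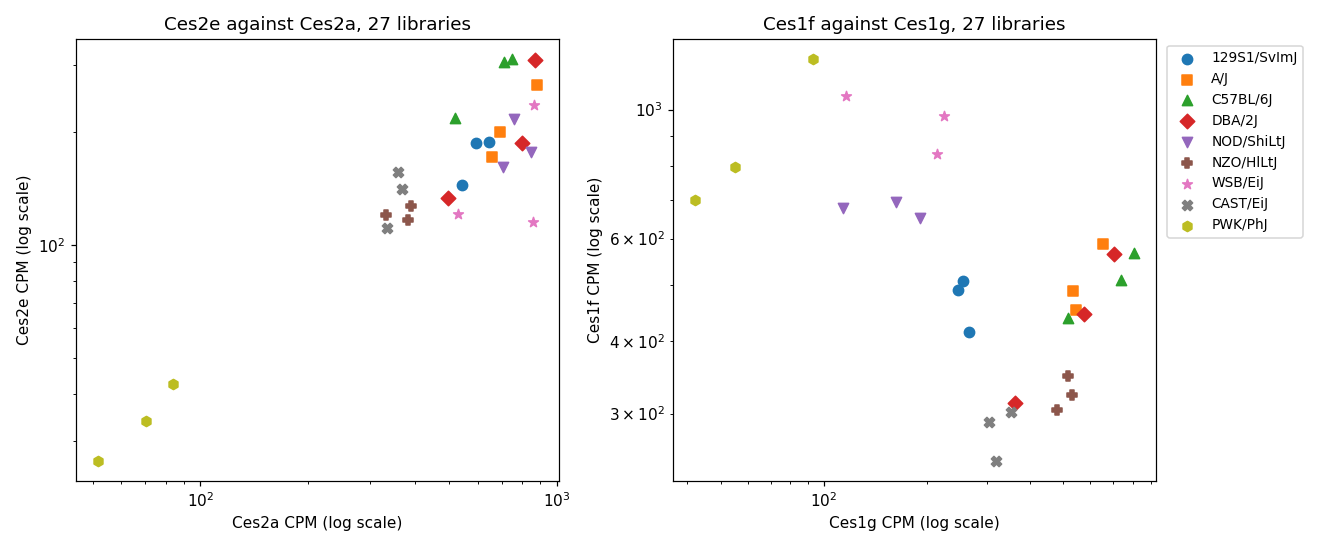
CPM of 27 libraries on log axes, Ces2e against Ces2a on the left and Ces1f against Ces1g on the right, coloured by strain. The 3 PWK/PhJ libraries sit alone at the low corner of the left plot, and in the right plot PWK/PhJ combines the lowest Ces1g with high Ces1f.

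Ces2c (ENSMUSG00000061825, chr8:104847068-104854483, plus strand), a triacylglycerol hydrolase of intestine and liver, had 1 high and 1 low strain. C57BL/6J libraries read 51.3, 78.4 and 70.4 CPM, a mean of 66.7 ± 13.9, and no library of another strain exceeded 43.2 CPM. DBA/2J at 31.7 ± 14.9 CPM, NZO/HlLtJ at 27.4 ± 2.67, A/J at 22.6 ± 7.36, 129S1/SvImJ at 21.2 ± 5.81, WSB/EiJ at 20.97 ± 3.15, NOD/ShiLtJ at 20.6 ± 6.11 and PWK/PhJ at 19.1 ± 3.63 formed a middle group with no called neighbours. CAST/EiJ libraries read 3.93, 1.24 and 1.29 CPM. The 15 called pairs were the 8 with CAST/EiJ, from 8.63-fold against PWK/PhJ (4.84 to 15.4, adjusted p = 3.01e-06) to 30.1-fold against C57BL/6J (16.3 to 55.5, adjusted p = 4.26e-09), and C57BL/6J over the other 7. The step from C57BL/6J to DBA/2J, 2.11-fold with an adjusted p of 0.0292, was not called without the 3 libraries that stood apart (adjusted p = 0.15) or with the Kupffer and endothelial levels as covariates (adjusted p = 0.12). With these covariates C57BL/6J over 129S1/SvImJ and over NZO/HlLtJ was not called either (adjusted p = 0.082 and 0.14).

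The low Ces2c value of CAST/EiJ did not hold for the sum of Ces2c and the genes it most resembles. The longest transcript of Ces2c is 97.6% identical to that of the pseudogene Ces2d-ps and 91.7% to that of Ces2b, a neighbouring Ces2 gene, and its count was not a whole number (to within 0.001) in 26 of 27 libraries, as happens when reads are divided between genes. Ces2b was at 106 ± 19.3 CPM in CAST/EiJ, at 10.4 ± 3.63 in PWK/PhJ and at 0.441 CPM or less in the other 7 strains. Ces2d-ps was at 1.32 ± 0.247 CPM in CAST/EiJ, so the sum of the 3 genes there rests on Ces2b. Summed, Ces2c, Ces2d-ps and Ces2b gave 109 ± 20.5 CPM in CAST/EiJ, the highest of the 9 strains, with Ces2c holding 1.97% of it; in C57BL/6J the sum was 67.7 ± 14.0 CPM and Ces2c held 98.5%. With the sum in place of Ces2c, 8 of its 15 called differences changed direction, those with CAST/EiJ. Of these, CAST/EiJ over C57BL/6J was then not called (1.62-fold, adjusted p = 0.095). In PWK/PhJ the sum was 36.6 ± 7.44 CPM and Ces2c held 52.3%. The Ces2c levels of CAST/EiJ and PWK/PhJ are therefore reported as uncertain.

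Of the 10 members Ces2h (ENSMUSG00000091813, chr8:105000853-105021178, plus strand) differed most by strain, with the 13th highest F statistic of the 14482 genes tested (adjusted p = 4.96e-20). It belongs to the Ces2 branch, and less is known of its substrates. WSB/EiJ libraries read 158, 157 and 145 CPM, PWK/PhJ libraries 152, 109 and 77.5 CPM and CAST/EiJ libraries 57.6, 56.1 and 48.3 CPM. The 3 wild-derived strains were thus apart from the 6 classical strains, whose libraries held 4 to 25 counts each. Their means were 0.682 ± 0.167 CPM in NOD/ShiLtJ, 0.641 ± 0.267 in A/J, 0.484 ± 0.234 in DBA/2J, 0.436 ± 0.150 in 129S1/SvImJ, 0.321 ± 0.0570 in NZO/HlLtJ and 0.282 ± 0.166 in C57BL/6J. The smallest gap between the sides, CAST/EiJ over NOD/ShiLtJ, was 78.9-fold (50.1 to 124, adjusted p = 1.85e-13). WSB/EiJ over PWK/PhJ was not called (1.36-fold, 0.976 to 1.89). WSB/EiJ exceeded CAST/EiJ 2.83-fold (adjusted p = 3.96e-05), and PWK/PhJ exceeded it 2.08-fold (1.49 to 2.91, adjusted p = 0.00164), but the latter was not called with Kupffer and endothelial covariates (1.37-fold, adjusted p = 0.31). NOD/ShiLtJ over C57BL/6J was also called, 2.46-fold with an adjusted p of 0.0348 (0.080 with the replicate block), at a depth of a few counts a library. All Ces2h counts were whole, and its closest Ces transcript, Ces2d-ps, was 79.5% identical.

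The Ces2h promoter window holds the half-site AGGTCA at 2 places, one on each strand (TGACCT in the printed letters for the minus strand), and AGTTCA at 1. Searched on both strands, AGGTCA was in 16.3% and AGTTCA in 14.0% of 32851 promoter windows. Of the 7 members with a window, AGGTCA was in Ces2a and Ces2h and AGTTCA in Ces2h. TTGCNNAA, a core of C/EBP sites, was in Ces1c, Ces2a and Ces2e and in 10.8% of all windows; within Ces2a it occurred on both strands, at positions -208 and -83. TATAAA was in Ces1g alone and in 13.6% of all windows, and TGTTTGC, a FOXA core, in Ces1c alone and in 5.07%. The HNF1 half-site GTTAAT (7.10% of all windows) and TGTTTAC, another FOXA core (3.65%), were in none of the 7. Such matches are letters in the reference sequence, and the windows of Ces1d, Ces1f and Ces3a were not used.

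Ces3a (ENSMUSG00000069922, chr8:105048601-105058413, plus strand) belongs to the Ces3 branch of the family and is, like Ces1d, an abundant esterase of hepatocytes; its mean over all libraries was 1574 CPM. It was highest in A/J, with libraries at 2399, 2193 and 3496 CPM, then in PWK/PhJ, with 3038, 1735 and 1367 CPM. NOD/ShiLtJ followed at 1754 ± 119.9 CPM, DBA/2J at 1584 ± 213, C57BL/6J at 1520.2 ± 214, WSB/EiJ at 1417 ± 403, CAST/EiJ at 1174 ± 212, NZO/HlLtJ at 1038 ± 149.8 and 129S1/SvImJ at 933 ± 134. No neighbour step was called, and PWK/PhJ spanned most of the range, its highest library being the one with high Kupffer and endothelial sums. A/J was 2.89-fold above 129S1/SvImJ (2.00 to 4.17, adjusted p = 8.82e-05). For Ces3a as deposited, as for Ces2h, neither CAST/EiJ nor PWK/PhJ was the lowest strain. Summed with its close copy Ces3b, CAST/EiJ was the lowest at 1387 ± 253 CPM, next to 1411 ± 125 in 129S1/SvImJ.

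Ces3a and Ces1c also have close copies in the table. Ces3a is 95.4% identical to Ces3b over its transcript, with a shared run of up to 194 bases, and Ces1c is 91.1% identical to Ces1b; both had counts that were not whole, by the same tolerance of 0.001, in all 27 libraries. Summed with Ces3b, Ces3a kept 5 of its 13 called pairs, all in the same direction, and the sum held 66.1% (129S1/SvImJ) to 86.1% (PWK/PhJ) Ces3a. Summed with Ces1b, Ces1c kept 13 of 14. Ces1b itself ranged from 620.0 ± 96.4 CPM in NOD/ShiLtJ to 41.1 ± 8.12 in PWK/PhJ, with 141 ± 34.1 in C57BL/6J. Ces1c made up 90.7% to 99.0% of the sum in each strain.

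Set side by side per kilobase of transcript, which allows levels of different genes to be compared, Ces1c was the leading carboxylesterase in every strain. It made up 48.3% ± 1.14 of the summed CPM per kilobase of the 20 Ces genes in A/J and 56.7% ± 1.35 in C57BL/6J, its lowest and highest shares. Ces3a came next over all libraries, at 769 CPM per kilobase, with a share from 10.04% ± 1.60 in 129S1/SvImJ to 22.3% ± 3.81 in PWK/PhJ. Among the 10 members alone Ces1d followed at 452 CPM per kilobase, Ces1f at 292, Ces2a at 285, Ces1g at 154, Ces1e at 92.9, Ces2e at 62.0, Ces2h at 14.7 and Ces2c at 13.1. Of the other Ces genes Ces3b, at 206, and Ces1b, at 187, stood above Ces1g, and Ces2g, at 22.5, above Ces2h. Ces1f held 10.7% ± 0.684 of the sum in PWK/PhJ and 3.84% ± 0.183 in A/J. The 10 members together held 91.0% to 95.9% of the sum in each strain. Summed over the 10 members the level was 3089 ± 112 CPM per kilobase in CAST/EiJ, the lowest, and 6315 ± 1131 in A/J, the highest, followed by 6120.0 ± 927 in C57BL/6J. With library totals as the only scaling CAST/EiJ was still the lowest, at 3556 ± 150, but NOD/ShiLtJ was the highest, at 6193 ± 365, and A/J stood at 5139 ± 303. The hepatocyte sum was also lowest in CAST/EiJ and highest in A/J, and its part in the difference was not tested.

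**Figure D5:**
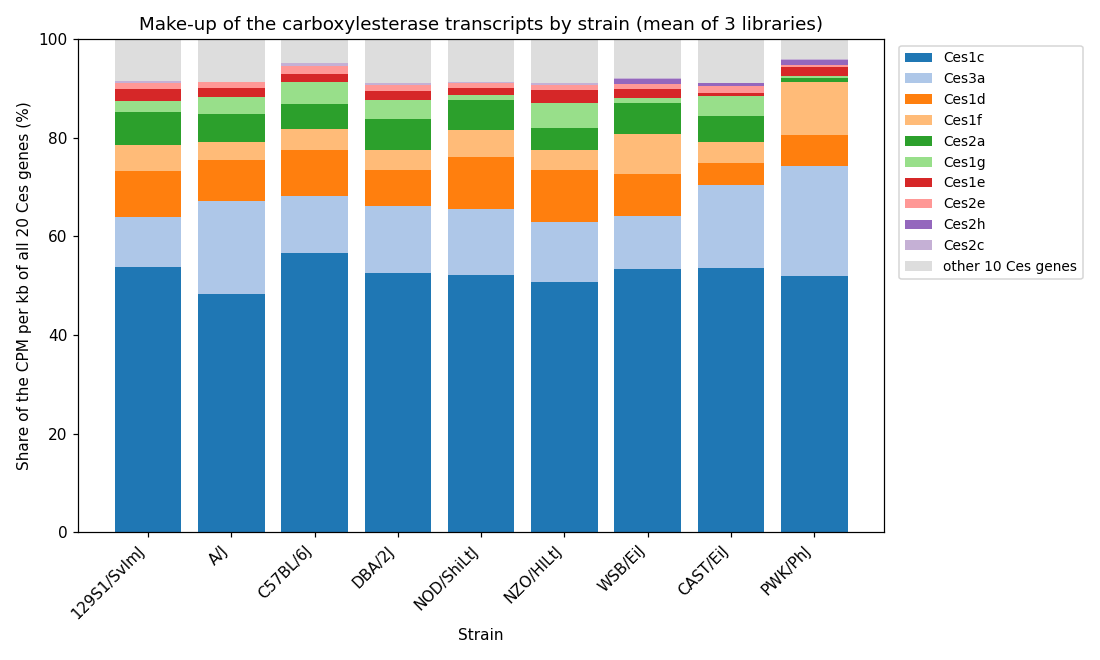
Stacked bars, a bar per strain starting at 0, of the percent of summed CPM per kilobase of transcript held by each carboxylesterase gene. Ces1c takes between 48.3% and 56.7% everywhere, while Ces3a is widest in PWK/PhJ at 22.3%.

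Across strain means the members did not move as a block. Of their 45 pairs 32 had a positive correlation of log2 strain means over the 9 strains, with a median of 0.25. After Ces2a with Ces2e the highest Pearson value was Ces1e with Ces2c, at 0.91, which was 0.27 over the 8 strains without CAST/EiJ, and it uses the uncertain CAST/EiJ value of Ces2c. Ces1d with Ces1e followed at 0.86, and 0.48 without CAST/EiJ, and Ces1c with Ces1d at 0.86, and 0.79 without CAST/EiJ. Ces1f with Ces1g was the lowest, at -0.68, and stayed negative without PWK/PhJ, at -0.55. Within strains the picture was another: the deviations of the 27 libraries from their strain means correlated positively for all 45 pairs, with a median of 0.61. All members of a library share its scaling factor and its cell preparation. The libraries that stood apart were included, and no value for pairs of other genes is given here.

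For each member, the 3 non-member genes with the most similar strain means were listed among 11349 tested genes averaging at least 1 CPM, with Pearson's r over 9 strains. With so many genes and 9 points, high values arise readily, and the names are a description. Ces1c was most like Ugt2b34 (0.98), Tor2a (0.97) and Slc35c1 (0.97), and Ces1d like Srd5a3 (0.97), Adck5 (0.96) and Mms22l (0.96). Ces1e, lowest in CAST/EiJ, was most like 1110002L01Rik (0.98), Slc30a4 (0.98) and Steap3 (0.97). For Ces1f they were Gm28040 (0.96), Creg1 (0.96) and 9630013D21Rik (0.94), and for Ces1g Rai1 (0.93), Trio (0.91) and Tex2 (0.91). Ces2a and Ces2e shared Orm1 (0.97 and 0.96) and Mpp1 (0.97 and 0.96), with Ptprs (0.98) for Ces2a and Lama4 (0.96) for Ces2e as the others. Ces2c was most like Enpp3 (0.96), 1810030O07Rik (0.96) and Arfgef1 (0.94), a likeness that uses its uncertain CAST/EiJ value. Ces2h was most like Zfp976 (0.99), Sds (0.96) and Ptger3 (0.96), and Ces3a like Snx25 (0.92), Galc (0.91) and Ppp4r1l-ps (0.91). Ugt2b34 belongs to the glucuronosyltransferases, which conjugate drugs and steroids, and Orm1 encodes a plasma acute-phase protein.

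Most other genes of the same pathways were called as well, beside the 74.2% of all genes tested. Of the other 10 Ces genes, 7 were tested and all 7 were called. Ces2g, whose counts were whole in all but 1 library, ran from 90.7 ± 26.8 CPM in C57BL/6J to 41.2 ± 3.92 in NZO/HlLtJ (adjusted p = 0.000166). Of 16 other esterases and lipases 15 were called. Pon2, of the paraoxonase family, was at 3.75 ± 0.308 CPM in CAST/EiJ and at 33.2 to 54.1 CPM in the other 8 strains. Pon1, the paraoxonase of high density lipoprotein, and Aadac, an acylglycerol and drug hydrolase, were also lowest in CAST/EiJ, at 564 ± 21.4 and 197 ± 0.854 CPM against 1533 ± 185 in C57BL/6J and 562 ± 36.3 in WSB/EiJ. Pon3 was lowest in WSB/EiJ instead, at 26.2 ± 1.88 CPM, and highest in A/J, at 88.2 ± 10.9.

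Very low density lipoprotein assembly, the process that Ces1d feeds, was read from 11 genes, and all 11 were called. Mttp, which loads lipid onto apolipoprotein B, was highest in WSB/EiJ at 662 ± 52.8 CPM and lowest in NZO/HlLtJ at 253 ± 30.8. Apob, which also stands in the hepatocyte list, and the cargo receptor Mia3 were highest in A/J, at 10583 ± 2341 and 192 ± 27.7 CPM, and lowest in NZO/HlLtJ, at 4608 ± 933 and 87.4 ± 10.1. Mia2 was lowest in CAST/EiJ, at 144 ± 13.0 CPM, and highest in C57BL/6J, at 302 ± 51.3; its counts were not whole in any library, so its split is uncertain. None of these 4 shared both its highest and its lowest strain with Ces1d, which were NOD/ShiLtJ and CAST/EiJ.

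Of 11 nuclear receptors and other regulators of liver genes 10 were called. Nr1i3, the constitutive androstane receptor, was at 261 ± 50.6 CPM in C57BL/6J and at 111 ± 28.2 in PWK/PhJ, next to 114 in NZO/HlLtJ. Its counts were not whole in any of the 27 libraries. Nr1i2, the pregnane X receptor, ran from 34.3 ± 3.10 CPM in WSB/EiJ to 49.5 ± 10.4 in CAST/EiJ (adjusted p = 0.0124), with 9 strain pairs called. Nr1h3, a receptor for oxysterols, and its partner Rxra were highest in CAST/EiJ, at 113 ± 11.2 and 367 ± 39.4 CPM, and lowest in A/J, at 42.8 ± 3.84 and 200 ± 20.7. Nfe2l2, a regulator of antioxidant genes, ran from 33.7 ± 4.74 CPM in NZO/HlLtJ to 61.6 ± 10.7 in WSB/EiJ.

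All 12 listed target genes of these drug receptors were called. Cyp2b13 and Cyp2b9, cytochrome P450 genes, were lowest in 129S1/SvImJ, at 2.54 ± 0.879 and 2.49 ± 0.552 CPM, and highest in DBA/2J at 531 ± 207 and in WSB/EiJ at 1543 ± 66.5. Both had counts that were not whole in at least 26 libraries, so their split is uncertain. Cyp2c55 ran from 2.14 ± 0.0928 CPM in 129S1/SvImJ to 83.1 ± 60.4 in DBA/2J. Gstm3, a glutathione transferase gene, was at 0.235 ± 0.0332 CPM in PWK/PhJ and 136 ± 32.2 in NOD/ShiLtJ, with NZO/HlLtJ at 0.753; its counts were not whole in any of the 27 libraries, so its split is uncertain too.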

How the data were processed

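RNA-seq of hepatocytes was used as one table of estimated counts per Ensembl gene (27 libraries), which the authors deposited unscaled; 10.8% of its values were not whole to within 0.001. The submitters' processing notes name FastQC 0.11.5, DESeq2 and the builds GRCm38 and mm10, without their roles; the aligner, the counting program, strand and whether reads were mapped to strain genomes are not given in the sources used here, so overlapping, antisense and near-identical genes are uncertain. Symbols and coordinates came from GENCODE M21 (42462 of 43346 identifiers matched), promoter sequences from RefSeq GRCm38.p6 (7 of 10 members).

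Estimated counts were rounded. Genes passing filterByExpr (14482) were TMM-scaled and fitted with edgeR 4.0.16 in R 4.3.3 (quasi-likelihood, strain the only factor, all 27 libraries). The strain effect was tested over all strains, and 36 strain pairs as contrasts with 1 Benjamini-Hochberg adjustment over all genes and pairs; the threshold was 0.05. Intervals are 95%. Log2 CPM used a prior count of 2. Simulated data with known changes were used to test the fit. Transcript identity came from local alignment of the longest transcripts.

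All 10 members are named. Other genes named are, per list, the 4 with the smallest adjusted p, with Gusb, Nr1i2 and Nr1i3, and the 3 most like each member; of the Ces genes, Ces1b, Ces2b and Ces2d-ps are described with the member they resemble. Members and lists were chosen with earlier results of these data known. Alternatives included DESeq2 1.42.0, other scalings and filters, a replicate block, marker covariates and single libraries left out. Library totals as the only scaling of the fit, 3 libraries left out together and summed copies were added after seeing the data.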

Additional observations from a re-analysis of the deposited data

How the results depend on the processing

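All 10 members kept a strain effect under 0.05 in each of 37 refits, 27 of which left out 1 library; the largest adjusted p was 0.00498 (Ces3a with Kupffer and endothelial covariates). Genes called numbered 9350 to 11898, and 10352 to 11245 with 1 library left out. The 165 member-by-pair calls became 182 with DESeq2, 140 with the replicate number as a block, 203 without the 3 libraries that stood apart and 151 to 184 with 1 library left out; same-numbered libraries of different strains did not deviate together (mean correlation of deviations 0.0100 over 76 pairs, -0.00315 over 248 others). With DESeq2, median-of-ratios scaling, the block, covariates, library totals or without the 3 libraries, 165 of 165 kept their direction and 132 (covariates) to 165 (DESeq2) stayed called; with summed copies 157 kept their direction.

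Calls for Ces1c fell from 14 to 8 without a filter, to 9 with the block, and to 8 with fits on each pair's own libraries or with library totals, ranged from 8 to 16 with 1 library left out, and rose to 16 with DESeq2 and 20 without the 3 libraries. Ces1e rose from 9 to 20 with covariates, 14 with library totals and 15 without the 3 libraries, and ranged from 8 to 15. Ces2e gave 8 with covariates and 21 without the 3 libraries; Ces3a gave 7 with covariates and 5 with Ces3b summed. Scaling by library totals shifted all genes by log2 values from -0.31 (WSB/EiJ) to 0.26 (NZO/HlLtJ). The lowest strain then stayed for 10 of 10 members and the highest for 7: NOD/ShiLtJ became highest for Ces1c, NZO/HlLtJ for Ces1e and PWK/PhJ for Ces1f. Beyond fewer libraries or genes, the cause of each change was not tested. Depth limits Ces2h in the 6 low strains, at 4 to 25 counts a library.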
